A study of Mus musculus with 27 samples.

Results

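The 42 genes described here act in the G2 and M phases of the cell cycle. They were chosen by name as G2 and M phase genes, by a rule that uses no measured value but with earlier results of these data known, and each name was found once among the 39971 genes of the deposited count table. All 42 passed the filter on low values, which asked for 1 FPKM (a level scaled by gene length and library size) or more in 5 or more libraries of 27 and which 15080 genes passed. RNA was sequenced from colon tissue of BALB/c mice in 5 groups. NC mice (n = 6) had not been given the carcinogen azoxymethane (AOM) and the colitis-inducing irritant dextran sulfate sodium (DSS), and received normal saline by injection and by gavage. The other 4 groups had been given AOM/DSS and carried inflammation-associated colonic neoplasia. CAC mice (n = 5) received saline by both routes, CAC_F mice (n = 5) injected FOLFOX with saline by gavage, CAC_FP mice (n = 5) injected FOLFOX with a probiotic complex by gavage, and CAC_FPL mice (n = 6) injected FOLFOX with the probiotic complex and loperamide by gavage. FOLFOX combines folinic acid with the cytotoxic drugs fluorouracil and oxaliplatin, and loperamide is an opioid receptor agonist that slows gut transit. The study's design text dates collection to 1 week after the start of chemotherapy and gives no separate time for NC and CAC, which received none. All mice were labelled WT and all libraries carried 1 batch label. The labels give colon for NC and a colon segment bearing tumor for the AOM/DSS groups, so AOM/DSS exposure and tissue source cannot be told apart, and tumor cells were not separated from the tissue around them. The labels do not say whether each library came from 1 mouse, so p-values measure the spread between libraries.

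Cells enter mitosis when cyclin-dependent kinase 1, bound to B-type cyclins, becomes active at the end of G2. Condensed chromosomes are then attached through kinetochores to spindle microtubules, the spindle checkpoint holds the anaphase-promoting complex until all are attached, and that complex then releases separase and destroys the cyclins. Transcripts of these genes accumulate in G2 and M and are low in resting cells, and in the colon dividing cells are found chiefly at the crypt base and in neoplastic tissue. In bulk tissue, a difference in the number of dividing cells and a difference in RNA per dividing cell cannot be told apart.

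Genes of this kind are known to share promoter elements, the cell cycle genes homology region (CHR, TTTGAA or TTCGAA), which binds the DREAM and MuvB complexes, and the CCAAT box, which binds nuclear factor Y. RefSeq promoter windows of the GRCm38.p6 build, 250 bases before to 50 bases after each start, were matched by symbol to 36 of the 42 genes (39 windows). The letters TTTGAA or TTCGAA, on either strand, were in 79.5% of these windows and in 19.2% of all 32851 windows of the same length. CCAAT, on either strand, was in 71.8% of the members' windows and 37.4% of all windows, and both elements were in 66.7% against 7.52%. In 24 windows matched to a list of 28 S phase genes, CCAAT was in 79.2% and TTTGAA or TTCGAA in 16.7%. A match is a description of letters and not of binding. The 150 bases before the start are shown for 6 members whose levels are followed below, written along the gene with matches to the CHR letters or the CCAAT box, on either strand, in capitals.
Cdk1 (chr10:69352913-69353062, minus strand): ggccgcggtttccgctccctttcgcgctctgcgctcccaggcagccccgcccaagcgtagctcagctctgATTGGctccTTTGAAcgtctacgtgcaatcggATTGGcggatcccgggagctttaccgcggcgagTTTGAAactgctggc
Ccnb1 (chr13:100786487-100786636, minus strand): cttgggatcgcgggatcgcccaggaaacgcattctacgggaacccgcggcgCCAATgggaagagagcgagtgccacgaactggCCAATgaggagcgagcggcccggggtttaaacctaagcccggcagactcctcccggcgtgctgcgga
Cdc20 (chr4:118437344-118437493, minus strand): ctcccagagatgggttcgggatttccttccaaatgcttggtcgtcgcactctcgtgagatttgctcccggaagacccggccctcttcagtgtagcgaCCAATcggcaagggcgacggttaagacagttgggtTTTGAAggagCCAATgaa
Aurka (chr2:172370571-172370720, minus strand): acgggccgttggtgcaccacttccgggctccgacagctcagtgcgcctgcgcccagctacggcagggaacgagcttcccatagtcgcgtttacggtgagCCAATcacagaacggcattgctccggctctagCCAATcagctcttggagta
Mki67 (chr7:135716380-135716529, minus strand): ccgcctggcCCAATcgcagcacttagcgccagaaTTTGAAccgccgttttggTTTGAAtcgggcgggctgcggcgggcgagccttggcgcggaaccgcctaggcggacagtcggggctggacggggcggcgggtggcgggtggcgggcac
Plk1 (chr7:122159285-122159434, plus strand): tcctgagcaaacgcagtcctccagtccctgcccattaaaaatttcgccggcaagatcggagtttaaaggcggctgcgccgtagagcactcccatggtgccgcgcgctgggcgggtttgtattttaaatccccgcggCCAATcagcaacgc
Cdk1 held both elements in the stretch shown, whereas Ccnb1 held CCAAT at -99 and -67 from the start and no TTTGAA or TTCGAA anywhere in its window. In Aurka and Plk1 the TTTGAA match lay after the start, at 32 and 30. The CHR letters were in 81.8% of the windows of members called higher in CAC_F than in CAC and in 76.5% of the windows of the other members.

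Total counts were 56687812 to 79709845 per library, and the 42 genes held 0.0799% to 0.377% of them. The lowest count of a member in any library was 173, for Cdc25c, and of the 11 members whose levels are given by library 655, for Aurka. Levels are given as CPM, counts scaled to a common library size, with library sizes adjusted with trimmed means of M values, and levels of different genes are compared only as FPKM. A gene was called where its adjusted p was under 0.05 by edgeR's quasi-likelihood test, adjusted by the Benjamini-Hochberg method over 15080 genes, and every adjusted p below is of this kind unless another tool is named. Log2 fold changes are on the CPM scale and carry a standard error (SE). CAC_FPL replicate 3 stood apart: it was the lowest of its group in 42 of 42 members and the lowest of all 27 libraries in 38. CAC replicate 2 was the highest of its group in 39 members, and CAC_F replicate 3 was the highest of all libraries in 32. Counts of called members are therefore given also without these libraries where they change.

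Over the 5 groups the members' means were lowest in NC and highest in CAC_F or CAC_FP. Their share of all counts was 0.121% ± 0.0205 in NC (SD, n = 6), 0.176% ± 0.0507 in CAC (n = 5), 0.297% ± 0.0575 in CAC_F (n = 5), 0.26% ± 0.0444 in CAC_FP (n = 5) and 0.201% ± 0.0781 in CAC_FPL (n = 6). NC had the lowest group mean for 42 of 42 members, CAC_F the highest for 38 and CAC_FP for the other 4. The full order NC, CAC, CAC_FPL, CAC_FP, CAC_F, from low to high, held for 29 members. No member was called between neighbours in this order, that is between CAC and NC, CAC_FPL and CAC, CAC_FPL and CAC_FP or CAC_FP and CAC_F.

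The members moved together from library to library. After subtraction of each group's mean, the correlation of log2 CPM between 2 members over the 27 libraries had a median of 0.885 over 861 pairs, with a range of 0.327 to 0.98. These values share the library, its depth and its scaling, so they describe the libraries and test nothing. Plk1 was the member least like the others, with a median correlation of 0.498, and Bub3 the next, with 0.743.

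**Figure D1:**
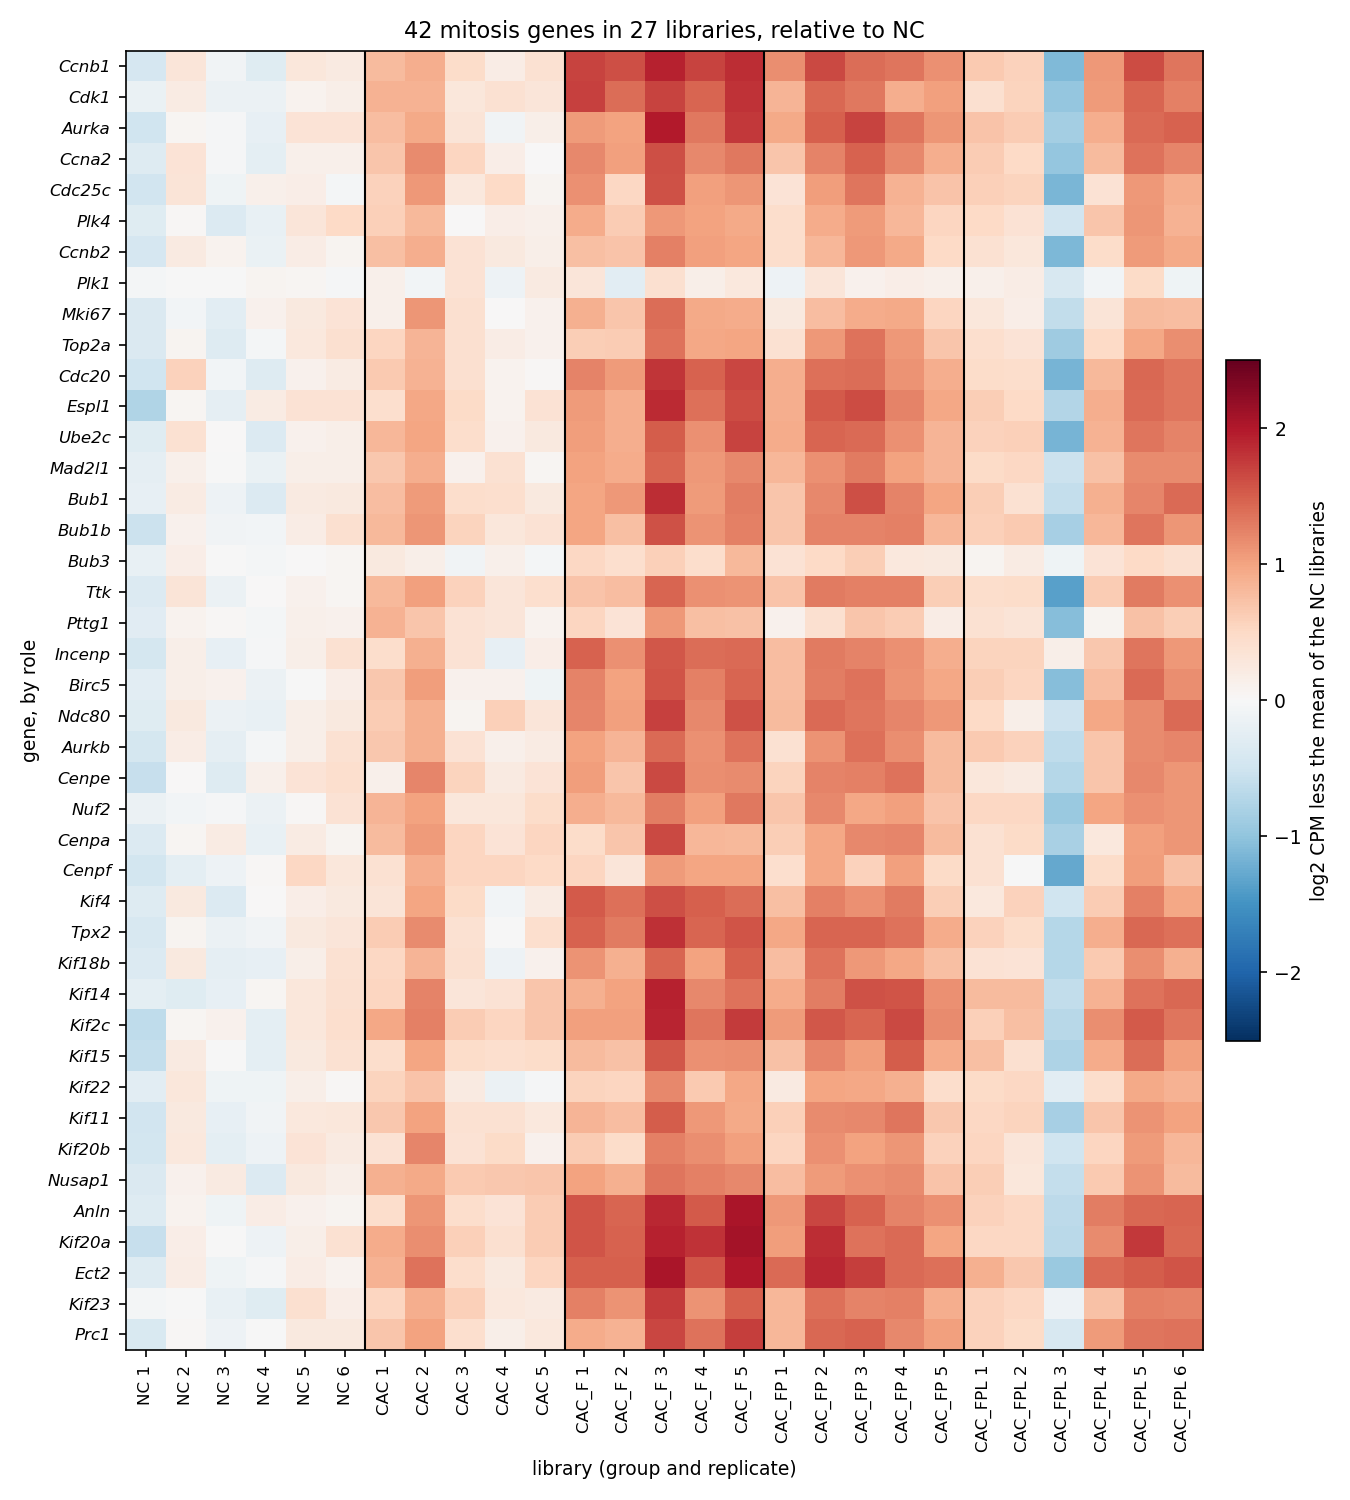
Log2 CPM of the 42 mitosis genes (rows, by role) in the 27 libraries (columns, by group and replicate), less the mean of the 6 NC libraries, with red higher and blue lower than NC. CAC_F and CAC_FP libraries are red in nearly every row, CAC_FPL replicate 3 is blue in nearly every row, and the rows of Plk1 and Bub3 are pale throughout.

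On the per-length scale the levels spanned a wide range. Plk1, the polo-like kinase that acts from mitotic entry to cytokinesis, had the highest mean FPKM of the 42 in NC, at 32.6, and Kif14, a kinesin of the midbody, the lowest, at 0.528. In CAC_F the highest was Cdc20, the activator of the anaphase-promoting complex, at 55.3, against 40.9 for Plk1, and Kif14 was again the lowest, at 1.45. Ccna2, Ccnb2, Mki67, Ube2c and Top2a followed Plk1 and Cdc20 in NC, with 11.7 to 15.4 FPKM.

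The comparison of CAC with NC addresses what AOM/DSS neoplasia, with its tissue source, changed in these genes. No member was called, and the background was 0% of 15080 genes called higher and 0.00663% called lower. All 42 log2 fold changes were above 0, with a median of 0.52 against 0.01 over all genes tested. At an unadjusted p below 0.05 there were 24 members, against 1164 of the 15080 genes, and DESeq2 called 1 member, Nusap1, while limma voom with library weights called none. The CAC libraries all lay above the NC libraries in 8 members (background 0.617% of genes).

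Nusap1, which bundles spindle microtubules, had the smallest p, with a log2 fold change of 0.75 ± 0.189 (SE; adjusted p = 0.254). Kif2c, a kinesin that depolymerizes microtubules at centromeres, had 0.80 ± 0.267 (adjusted p = 0.493). Cenpa, the histone variant of centromeres, had 0.66 ± 0.24 (adjusted p = 0.51), and Kif20a, a kinesin of the central spindle, had 0.74 ± 0.273 (adjusted p = 0.511). The members with the smallest differences were Bub3, at 0.08 ± 0.101, and Plk1, at 0.11 ± 0.125. The median log2 fold change of the S phase genes was 0.08, with 20 of 28 above 0 and none called. The 10 epithelial markers had 0 of 10 log2 fold changes above 0, and their summed level was 12350 ± 2025 CPM in NC and 8707 ± 1769 in CAC. With these markers as a covariate the members' median was 0.59, all 42 were above 0 and none was called.

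With FOLFOX alone, in CAC_F, cyclin B1, Cdk1 and every gene of cytokinesis in the list rose. In CAC_F against CAC 24 of 42 members were called higher and 0 lower, where the background was 19% of genes called higher and 20.2% called lower. The median log2 fold change was 0.66, against -0.03 over all genes tested, and all 42 were above 0. In 15 members every CAC_F library lay above every CAC library (background 10.9%, and 9.88% in the other direction). Leaving out 1 library at a time gave 18 to 32, the highest without CAC replicate 2.

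**Figure D2:**
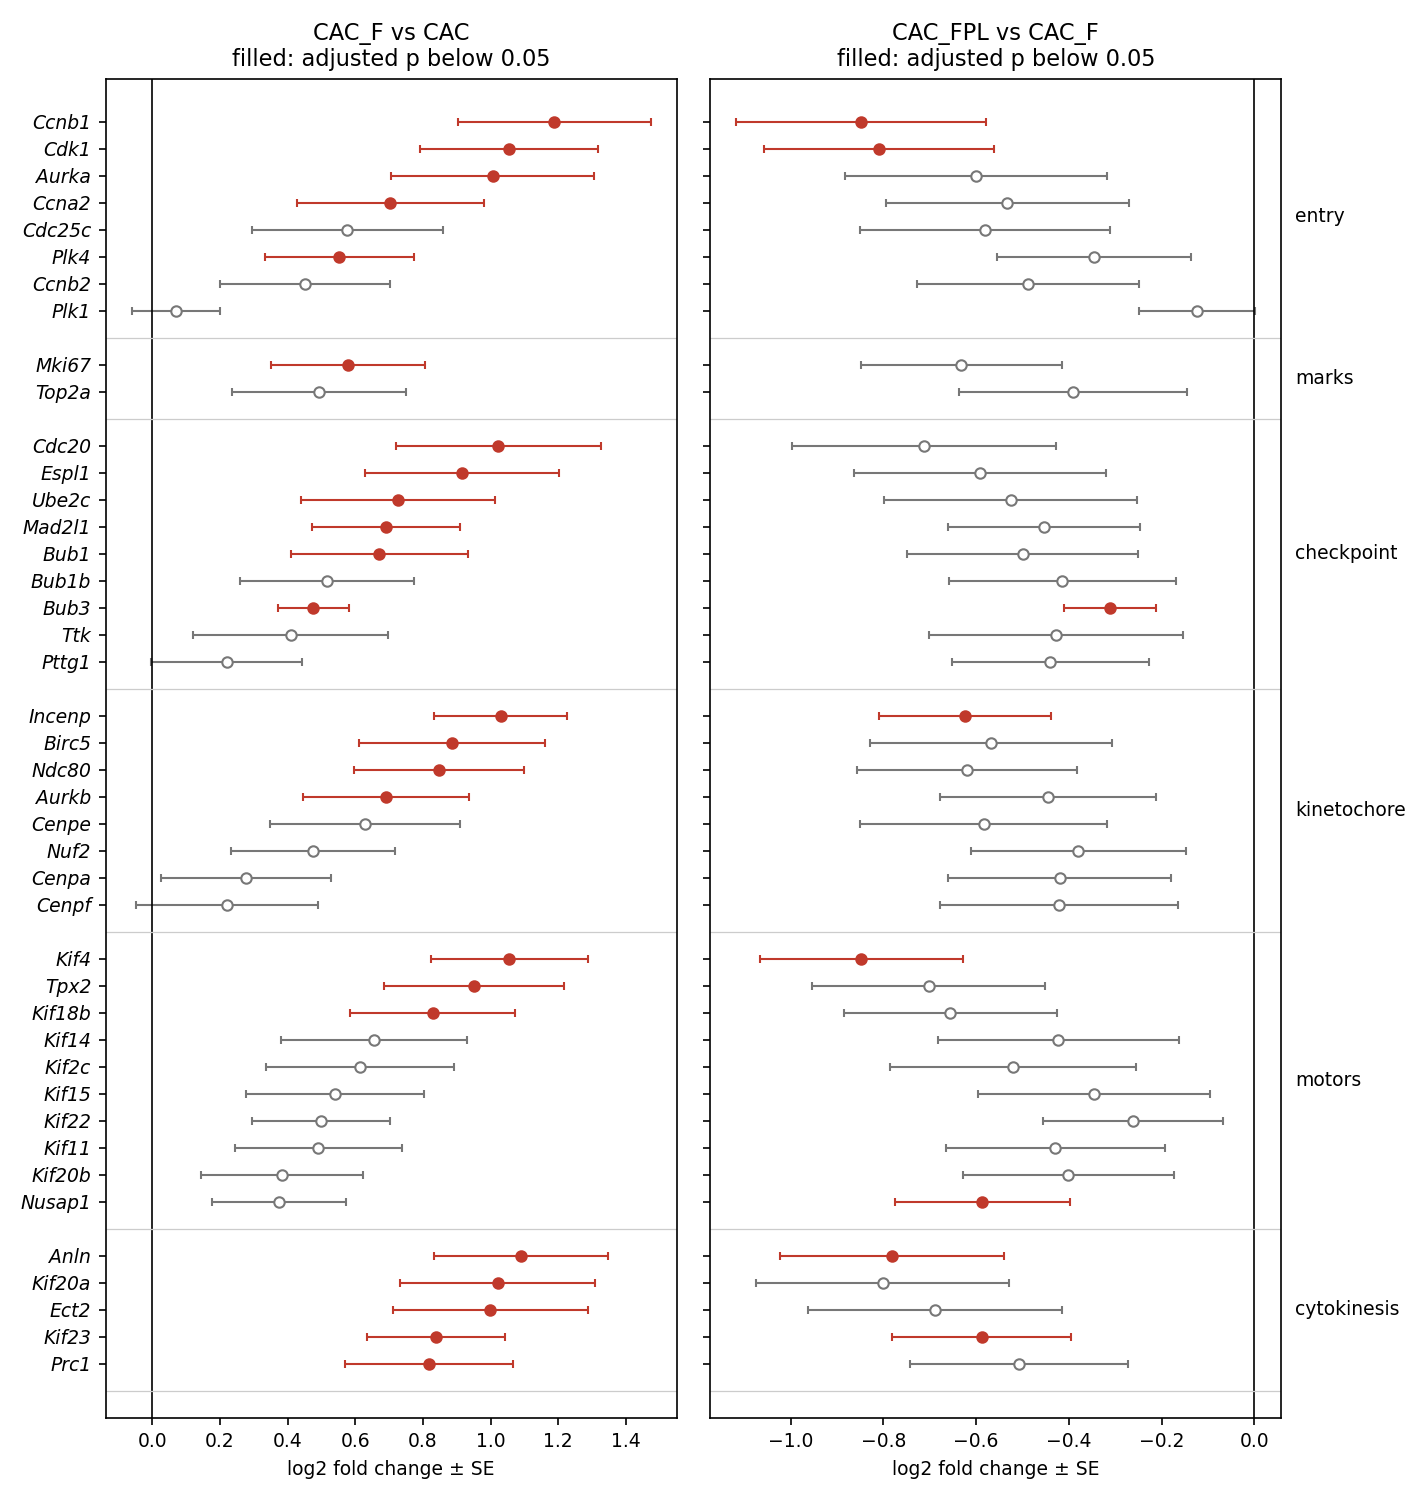
Log2 fold change ± SE of the 42 members, grouped by role, for CAC_F against CAC (left) and CAC_FPL against CAC_F (right), with filled red points for members called at an adjusted p below 0.05. All 42 points lie right of 0 on the left, where 24 are filled, and left of 0 on the right, where 8 are filled.

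Of the genes of mitotic entry, 5 of 8 rose in CAC_F. Ccnb1, which encodes cyclin B1 (chromosome 13, 100915158 to 100923078 by the coordinates in the deposited table, whose build the sources used here do not give), had a CPM of 53.3, 58.4, 42.7, 35.0 and 40.2 in the CAC libraries and 100, 94.3, 118, 100 and 111 in CAC_F. In NC it ran from 23.1 to 38.2 with a median of 32.7. Its CAC_FP libraries had 69.3, 96.7, 81.1, 78.0 and 68.1 CPM. The CAC_F libraries all lay above CAC and NC. Its log2 fold change of 1.19 ± 0.285 (SE; adjusted p = 0.00239) was the largest of the 42. Cdk1, the kinase that cyclin B1 activates (chromosome 10, 69170976 to 69188768), had 45.6, 45.9, 30.4, 32.5 and 31.0 CPM in CAC and 82.2, 66.1, 80.6, 68.7 and 87.5 in CAC_F. Cdk1 in NC had a lowest, median and highest level of 22.5, 24.7 and 29.0. In CAC_FP it had 45.5, 68.1, 62.5, 47.2 and 51.2 CPM, and in CAC_FPL the lowest, median and highest were 12.8, 44.7 and 68.4. CAC and CAC_F did not overlap, and the log2 fold change was 1.05 ± 0.263 (adjusted p = 0.00309).

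Aurka, a kinase of centrosome maturation and spindle assembly (chromosome 2, 172198110 to 172212455), had 30.4, 34.3, 22.1, 16.7 and 19.7 CPM in CAC and 37.1, 35.7, 70.0, 44.5 and 60.1 in CAC_F. In NC the lowest, median and highest values of Aurka were 12.5, 17.9 and 22.5. Its CAC_FP libraries had 34.0, 50.1, 57.4, 44.6 and 38.2 CPM, and in CAC_FPL the lowest, median and highest were 9.82, 31.2 and 49.0. The lowest CAC_F library was just above the highest CAC library, and the log2 fold change was 1.01 ± 0.299 (adjusted p = 0.0102). Ccna2, the cyclin of S and G2, rose by 0.70 ± 0.276 (adjusted p = 0.0459), and Plk4, the kinase of centriole duplication, by 0.55 ± 0.22 (adjusted p = 0.0486). Both calls depended on single libraries: leaving out 1 at a time gave adjusted p of 0.0119 to 0.116 for Ccna2 and 0.0172 to 0.116 for Plk4. Ccnb2, the second B-type cyclin, had a log2 fold change of 0.45 ± 0.251 (adjusted p = 0.156) and Cdc25c, a phosphatase that activates Cdk1, 0.58 ± 0.282 (adjusted p = 0.107).

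Plk1 stood apart from the other entry genes. It lies on chromosome 7 from 121758662 to 121769096, and its CPM was 90.8, 78.6, 106, 75.4 and 96.8 in CAC and 102, 69.3, 109, 91.4 and 98.9 in CAC_F. These ranges overlap almost entirely, and the log2 fold change was 0.07 ± 0.131 (adjusted p = 0.696). Over the other groups it stayed between 62.6 and 115 CPM, and it was called in none of the 10 comparisons. Genes on the opposite strand beside it had lower means in CAC_F. Gm44985, which overlaps Plk1, had 40.4 ± 13.8 CPM in CAC (SD, n = 5) and 15.2 ± 7.04 in CAC_F (n = 5), and Ern2, 20 bases from Plk1, 135 ± 36.9 and 54.4 ± 25.2. The libraries were made with a strand-marking dUTP method, but the sources used here do not give whether the counting used strand, and the part of reads from these neighbours in the level of Plk1 was not tested.

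The 2 general marks of cycling cells are Mki67, a surface protein of mitotic chromosomes, and Top2a, the topoisomerase that untangles them. Mki67 (chromosome 7, 135291513 to 135318090) had 171, 338, 209, 159 and 169 CPM in CAC and 291, 255, 414, 303 and 301 in CAC_F. Mki67 in NC had a lowest, median and highest level of 123, 160.0 and 199.8. In CAC_FP it had 187, 270.4, 299, 305 and 229 CPM, and in CAC_FPL the lowest, median and highest were 103, 195 and 273. CAC replicate 2 lay within the CAC_F range and the other 4 CAC libraries below it. The log2 fold change was 0.58 ± 0.228 (adjusted p = 0.0467), and leaving out 1 library at a time gave 0.48 to 0.85 with adjusted p from 0.00385 to 0.117. Top2a (chromosome 11, 98883769 to 98915015) had 174, 215, 158, 136 and 129 CPM in CAC and 184, 184, 306, 234 and 235 in CAC_F. In NC the lowest, median and highest values of Top2a were 92.3, 120.4 and 157. Its CAC_FP libraries had 155, 251, 305, 252 and 194 CPM, and in CAC_FPL the lowest, median and highest were 64.4, 165 and 267. CAC and CAC_F overlapped, and its log2 fold change of 0.49 ± 0.258 did not pass the test (adjusted p = 0.132).

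**Figure D3:**
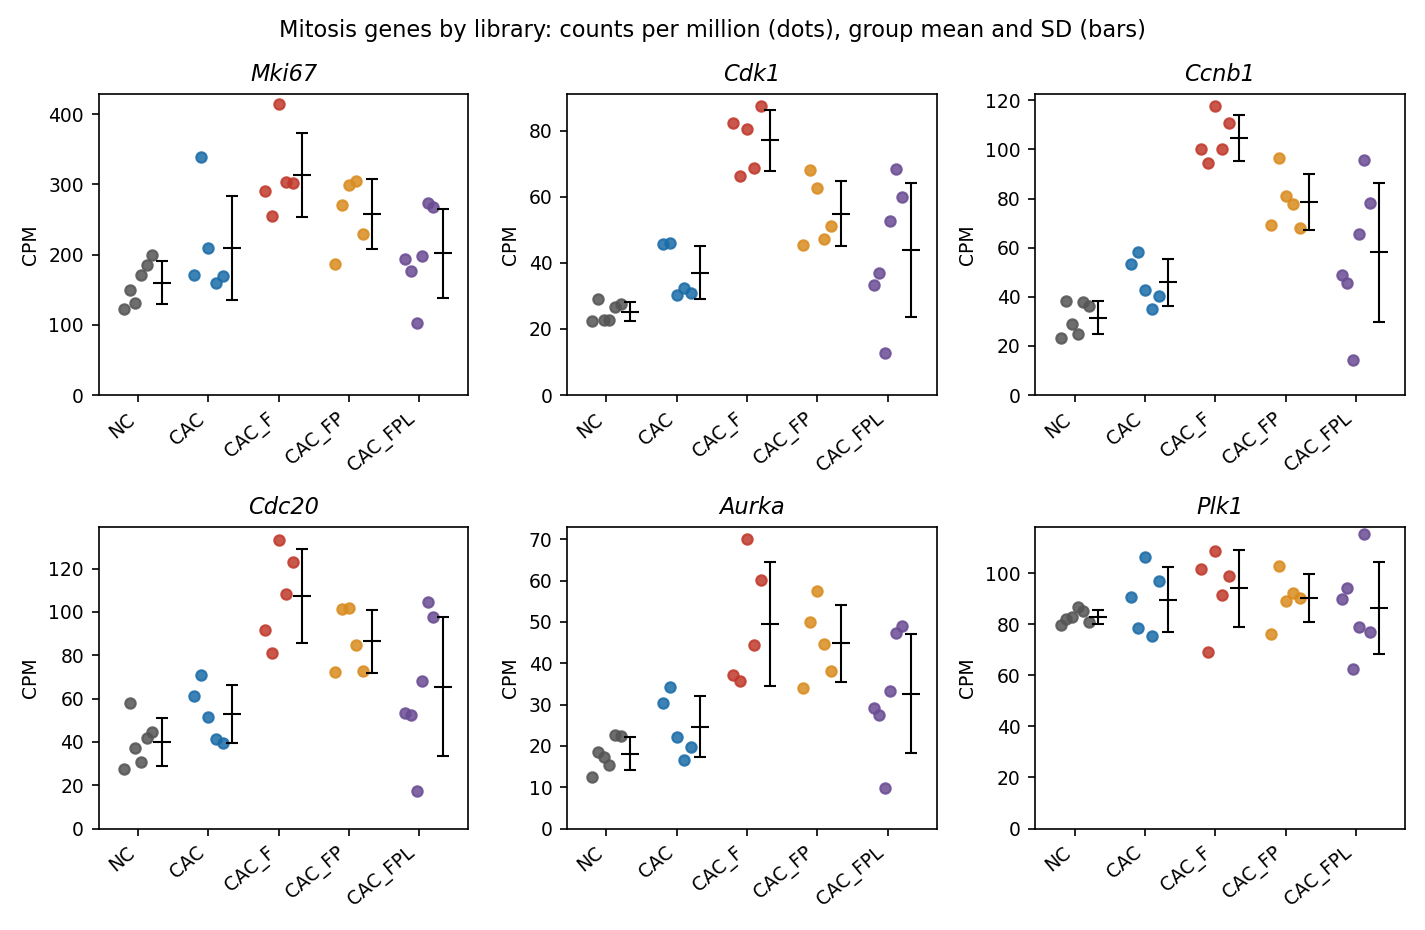
CPM of 6 members by group, 1 dot per library, with the group mean and SD as bars beside the dots. Cdk1, Ccnb1, Cdc20 and Aurka in CAC_F lie above every CAC library, Mki67 has 1 CAC library within the CAC_F range, and Plk1 stays between 62.6 and 115 CPM in every group.

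Of 9 genes of the spindle checkpoint and anaphase, 6 rose. Cdc20 (chromosome 4, 118290098 to 118294549) had 61.3, 70.7, 51.5, 41.2 and 39.6 CPM in CAC and 91.8, 80.9, 133, 108 and 123 in CAC_F. Cdc20 in NC had a lowest, median and highest level of 27.7, 39.3 and 58.1. In CAC_FP it had 72.4, 101, 102, 84.6 and 72.6 CPM, and in CAC_FPL the lowest, median and highest were 17.3, 60.7 and 105. CAC and CAC_F did not overlap in Cdc20, and its log2 fold change was 1.02 ± 0.302 (adjusted p = 0.00985). Bub3, a checkpoint protein at kinetochores (chromosome 7, 131161951 to 131173624), changed by less but with less spread: 73.4, 69.0, 58.7, 67.5 and 60.1 CPM in CAC and 88.4, 82.7, 93.3, 84.4 and 108 in CAC_F. In NC the lowest, median and highest values of Bub3 were 54.5, 62.3 and 69.6. Its CAC_FP libraries had 79.8, 87.8, 94.6, 74.5 and 73.2 CPM, and in CAC_FPL the lowest, median and highest were 57.6, 75.0 and 88.1. CAC and CAC_F did not overlap, and the log2 fold change was 0.48 ± 0.105 (adjusted p = 0.00127). Espl1, the protease separase, rose by 0.92 ± 0.287, and Ube2c, the ubiquitin-conjugating enzyme of the anaphase-promoting complex, by 0.73 ± 0.286. The checkpoint genes Mad2l1 and Bub1 rose by 0.69 ± 0.218 and 0.67 ± 0.262, and the highest adjusted p of these 4 genes was 0.0466. With 1 library left out at a time, the adjusted p reached 0.113 for Ube2c and 0.128 for Bub1. Bub1b and Ttk, also of the checkpoint, had log2 fold changes of 0.52 ± 0.258 and 0.41 ± 0.288, and Pttg1, the separase inhibitor securin, 0.22 ± 0.223, none of them called.

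At centromeres and kinetochores 4 of 8 members rose, and 3 of these 4 belong to the chromosomal passenger complex. Incenp, the scaffold of that complex (chromosome 19, 9849660 to 9876915), had 37.6, 51.5, 35.9, 24.1 and 31.4 CPM in CAC and 77.7, 61.5, 82.2, 73.0 and 74.1 in CAC_F. Incenp in NC had a lowest, median and highest level of 20.5, 29.0 and 36.5. In CAC_FP it had 47.5, 68.3, 65.9, 61.8 and 52.1 CPM, and in CAC_FPL the lowest, median and highest were 30.8, 42.9 and 70.2. Incenp had the smallest p of the 42 members, with a log2 fold change of 1.03 ± 0.197 (adjusted p = 0.000428) and no overlap between CAC and CAC_F. Birc5, or survivin, rose by 0.89 ± 0.276 and Aurkb, the kinase of the complex, by 0.69 ± 0.246 (adjusted p = 0.0138 and 0.0284). With 1 library left out at a time, the adjusted p of Aurkb reached 0.0747. Ndc80, which binds microtubules at the kinetochore, rose by 0.85 ± 0.251 (adjusted p = 0.0101). Its partner Nuf2 had 0.47 ± 0.243 and was not called, nor were the kinesin Cenpe at 0.63 ± 0.28, Cenpa at 0.28 ± 0.251 and the large coiled-coil protein Cenpf at 0.22 ± 0.268.

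Among spindle motors and assembly factors 3 of 10 rose. Kif4, the chromokinesin (chromosome X, 99669343 to 99770820), had 27.5, 43.7, 30.4, 20.8 and 25.2 CPM in CAC and 63.4, 56.7, 67.4, 61.9 and 57.6 in CAC_F. In NC the lowest, median and highest values of Kif4 were 17.2, 23.4 and 26.1. CAC and CAC_F did not overlap, and the log2 fold change was 1.05 ± 0.232 (adjusted p = 0.0012). Tpx2, an activator of Aurora A on the spindle, rose by 0.95 ± 0.267, and Kif18b, a kinesin at astral microtubule ends, by 0.83 ± 0.243. The other 7, Kif14, Kif2c, Kif15, Kif22, Kif11, Kif20b and Nusap1, had log2 fold changes of 0.66 down to 0.37 and adjusted p from 0.054 upward.

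All 5 genes of the central spindle and cytokinesis rose, with a median log2 fold change of 1.00. Anln, the actin-binding scaffold anillin (chromosome 9, 22243308 to 22300484), had 28.6, 45.6, 28.7, 27.0 and 33.0 CPM in CAC and 62.8, 58.4, 77.9, 61.1 and 86.8 in CAC_F. Anln in NC had a lowest, median and highest level of 17.0, 22.2 and 24.0. Its CAC_FP libraries had 45.1, 67.3, 58.9, 50.2 and 46.9 CPM, and in CAC_FPL the lowest, median and highest were 13.4, 41.5 and 58.1. Anln did not overlap between CAC and CAC_F and had a log2 fold change of 1.09 ± 0.256 (adjusted p = 0.00204). Kif20a rose by 1.02 ± 0.289, and Ect2, the exchange factor that activates RhoA at the division plane, by 1.00 ± 0.289. Kif23 and Prc1, which bundle the central spindle, rose by 0.84 ± 0.203 and 0.82 ± 0.248. The highest adjusted p of these 5 genes was 0.0117.

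Markers of some other cells moved with this comparison, in which 19% of all genes were called higher and 20.2% lower. Smooth muscle markers, 9 of 10 of them called lower in CAC_F, summed to 3330 to 14990 CPM in CAC and 1606 to 2835 in CAC_F. With their mean log2 CPM as a covariate, 5 members were called higher, namely Anln (log2 fold change 1.09 ± 0.333), Ccnb1 (0.99 ± 0.364), Cdk1 (0.93 ± 0.336), Incenp (0.69 ± 0.228) and Bub3 (0.41 ± 0.135), and the median over the members was 0.37 with 41 above 0. The exception was Pttg1 at -0.08. Epithelial markers summed to 6839 to 11320 CPM in CAC and 7279 to 11840 in CAC_F, with 2 of 10 called higher and 1 lower, and with them as a covariate 21 members were called. The 19% and 20.2% belong to the fit without a covariate. The shares of all genes called in the covariate fits are not given here, so the 5 and the 21 are not set beside a background. Macrophage and monocyte markers summed to 453 to 989 CPM in CAC and 1002 to 1888 in CAC_F, and neutrophil markers to 3.57 to 107 and 273 to 1060. Of the 8 neutrophil markers, Cxcr2, Mpo, Elane, Camp and Ltf did not pass the filter on low values, so the sum does not describe the whole list. T cell markers, 5 of 8 called lower, summed to 32.5 to 120 and 31.1 to 50.4 CPM. B cell, germinal centre and plasma cell markers summed to 1343 to 4230 and 774 to 2006 CPM, with 2 of 8 tested called lower. The shares called among the B cell, plasma cell and epithelial markers were near or below the background, so no change of those cells is read from them. The share of T cell markers called lower was above the background, but that list is short and the summed levels overlapped between the groups. Erythroid markers summed to 28.5 to 257 CPM in CAC and were near 0 in CAC_F, at 0.132 to 0.463. Beyond fits with the smooth muscle and epithelial covariates, the part of these cells in the members' levels was not tested. The smooth muscle markers did not overlap between CAC and CAC_F, so in that fit the part of smooth muscle and that of treatment cannot be told apart.

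The other genes of the pathway were counted in the same comparison. Each count is read beside the 19% of all genes called higher and the 20.2% called lower. Of 65 further mitosis genes tested, 42 rose and 0 fell, with a median log2 fold change of 0.67. Those with the smallest adjusted p were the microtubule regulator Psrc1 (2.21 ± 0.379), Gtse1, a G2 protein that restrains p53 (1.91 ± 0.334), and the centromere proteins Cenpt (0.93 ± 0.17) and Cenpm (1.46 ± 0.318). Of 8 condensin subunits, which compact chromosomes, 5 rose, led by Ncapg2 at 1.09 ± 0.267 and Ncaph at 1.13 ± 0.276. Of the cohesin genes, which hold sister chromatids together, 4 of 12 rose, among them Cdca5 at 1.10 ± 0.288, and 2 fell, Stag2 by 0.25 and Esco1 by 0.26 on the log2 scale. Of the subunits and partners of the anaphase-promoting complex 5 of 16 were higher, led by Anapc4 at 0.43 ± 0.0749, and 2 lower, Anapc13 at -0.52 ± 0.122 and Cdc16 at -0.30 ± 0.0921. The shares called lower among the cohesin and anaphase-promoting complex genes were below the background, so nothing particular is read from them. The shares called higher in these lists were above the background, but each list is short.

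Of 21 transcription regulators of mitosis genes, 10 rose and 2 fell. Mybl2, the B-Myb subunit that switches MuvB to activation, had 11.7 ± 4.49 CPM in CAC (SD, n = 5) and 59.0 ± 18.4 in CAC_F (n = 5), a log2 fold change of 2.34 ± 0.415 (adjusted p = 0.000224). Foxm1, the forkhead activator of G2 and M phase genes, rose by 0.68 ± 0.242 (adjusted p = 0.0289), from 33.9 ± 8.12 to 54.3 ± 10.6 CPM. E2f7, an E2F repressor, rose by 2.01 ± 0.332, and Rbl2, the p130 pocket protein of DREAM, fell by 0.54 on the log2 scale (adjusted p = 0.00195). Nfya, a subunit of nuclear factor Y, fell by 0.58 (adjusted p = 0.0194). Of 15 genes of the G2 checkpoint and of the control of Cdk1, a list that also holds the activating phosphatases Cdc25a and Cdc25b (neither called), 6 rose and 0 fell. Cdkn1a, the p21 inhibitor of cyclin-dependent kinases, went from 95.9 ± 15.5 to 240 ± 61.7 CPM (log2 fold change 1.33 ± 0.229, adjusted p = 0.000181), and Ccng1, a p53 target, from 135 ± 14.0 to 331 ± 59.2 (1.29 ± 0.188, adjusted p = 4.76e-05).

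S phase genes rose as well, 22 of 28, with a median log2 fold change of 0.91 beside 0.66 for the mitosis genes. Rrm2, a subunit of ribonucleotide reductase, went from 32.5 ± 17.8 to 188 ± 13.2 CPM, and Ccne1, or cyclin E1, from 8.37 ± 2.19 to 26.6 ± 6.34. Per library, the mean log2(CPM + 1) of the 42 mitosis genes less that of the 28 S phase genes ran from 0.40 to 0.54 in CAC and from 0.13 to 0.36 in CAC_F, without overlap. It ran from -0.09 to 0.40 in NC, from 0.12 to 0.40 in CAC_FP and from -0.43 to 0.22 in CAC_FPL, so that the 5 CAC libraries were the highest of all 27, although the nearest NC and CAC_FP libraries also round to 0.40. On the log2(FPKM + 1) scale CAC, at 0.06 to 0.17, lay above CAC_F, at -0.21 to -0.01, but overlapped NC, at -0.38 to 0.06. The quantity sums genes of different lengths and levels and is given as a description, with no test.

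**Figure D4:**
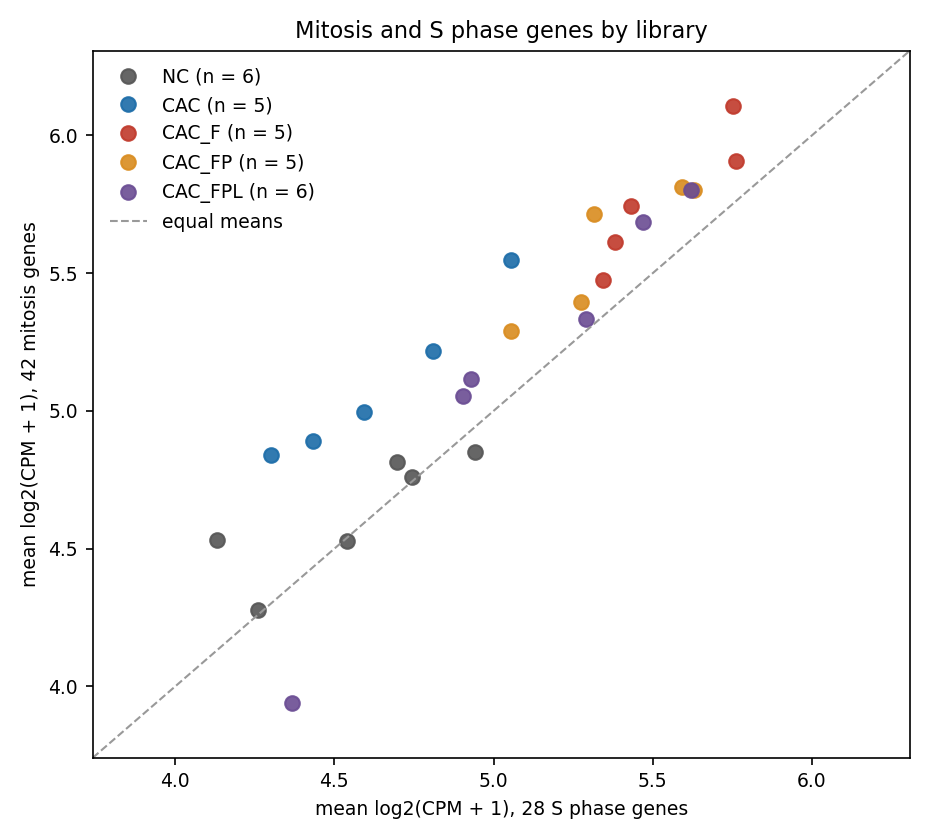
Mean log2(CPM + 1) of the 42 mitosis genes against that of 28 S phase genes, 1 point per library, with a dashed line where both means are equal. The CAC libraries lie farthest above the line, by 0.40 to 0.54, the CAC_F and CAC_FP libraries lie 0.12 to 0.40 above it, mostly farther right than CAC, and CAC_FPL replicate 3 lies lowest, 0.43 below it.

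Related members did not move by the same amount. The ratio of the CPM of Ccnb1 to that of Ccnb2 was 1.17, 1.16, 1.24, 1.09 and 1.36 in the CAC libraries and 2.21, 2.14, 1.82, 1.82 and 2.07 in CAC_F, with no overlap. It was 1.02 to 1.29 in NC, 1.43 to 2.02 in CAC_FP and 1.17 to 1.78 in CAC_FPL. The CAC_F and CAC_FP libraries all lay above the CAC and NC libraries in this ratio. Kif20a over Kif20b ran from 1.20 to 1.85 in CAC and from 1.95 to 2.61 in CAC_F, also without overlap. The ratio of Aurka to Aurkb, that of Plk1 to Plk4 and that of Bub1 to Bub1b overlapped between CAC and CAC_F. These 5 pairs were chosen as related genes after values of the members had been seen, and 23% of all 861 pairs of members had ratios that did not overlap between CAC_F and CAC, so no test is given.

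**Figure D5:**
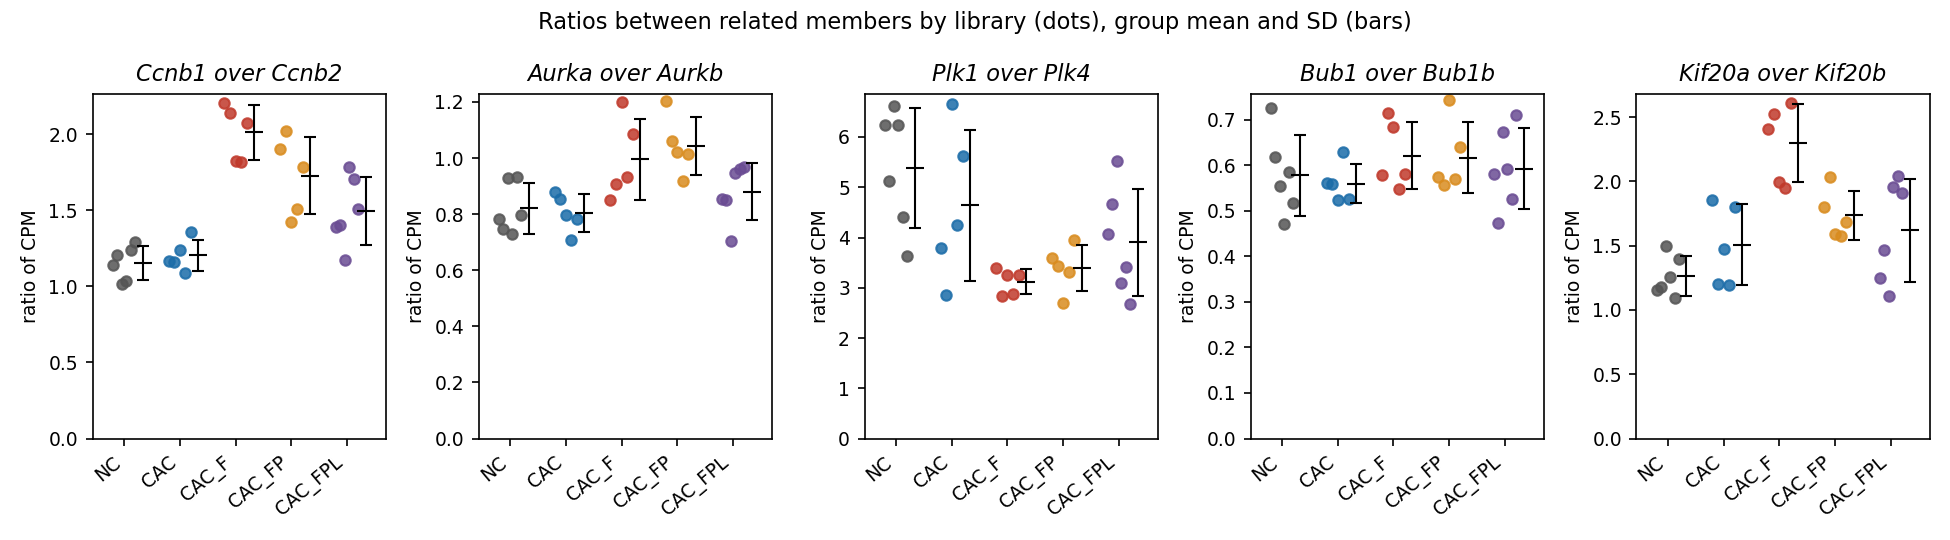
Ratio of the CPM of 2 related members in each library (dots), with group means and SD (bars), for 5 pairs over the 5 groups. Ccnb1 over Ccnb2 is 1.09 to 1.36 in CAC and 1.82 to 2.21 in CAC_F, and Bub1 over Bub1b overlaps in all 5 groups.

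With the probiotic complex added, 5 of 42 members were higher in CAC_FP than in CAC and 0 lower, where 9.68% of genes were called higher and 8.9% lower. They were Aurka (0.86 ± 0.298), Ect2 (0.84 ± 0.289), Incenp (0.71 ± 0.196), Kif23 (0.61 ± 0.203) and Bub3 (0.32 ± 0.105), with adjusted p from 0.0158 to 0.045. The count depended on the test: DESeq2 called 15, limma voom 23, limma on log2(FPKM + 1) 11 and edgeR fitted to only the groups compared 15, and 34 were called without CAC replicate 2 and CAC_FPL replicate 3. By the edgeR count the share called was near the background. The shares of all genes called under the alternatives are not given here, so the other counts are not set beside a background. The median log2 fold change was 0.55, against -0.03 over all genes, and 41 of 42 were above 0, the exception being Pttg1 at -0.07. Anln (0.72 ± 0.255, adjusted p = 0.0501), Espl1 (0.79 ± 0.286, adjusted p = 0.0546) and Ccnb1 (0.78 ± 0.283, adjusted p = 0.056) lay just beyond the threshold. The libraries did not overlap in 3 members, Ccnb1, Cdc20 and Ect2 (background 5.19% higher and 4.92% lower). Leaving out CAC replicate 2 brought the count to 16, and leaving out CAC replicate 4 brought it to 0. It was 3 without CAC replicate 1 or CAC_FP replicate 4, and 1 without CAC replicate 3 or 5 or CAC_FP replicate 2 or 3. With the smooth muscle covariate it was 0, with a median of 0.26. Smooth muscle markers summed to 1058 to 3328 CPM in CAC_FP, with 9 of 10 called lower than in CAC. Erythroid markers, 4 of 4 tested called lower, summed to 0.319 to 0.561 CPM in CAC_FP, with no overlap with CAC. Neutrophil markers summed to 89.7 to 648 CPM, macrophage and monocyte markers to 638 to 1070, T cell markers to 26.0 to 47.1 and B cell and plasma cell markers to 751 to 1380. Apart from the smooth muscle and epithelial covariates, the part of these cells in the members' levels was not tested. The smooth muscle markers did not overlap between CAC and CAC_FP either, so in that fit smooth muscle and treatment cannot be told apart. CAC_F, CAC_FP and CAC_FPL were compared with the same CAC libraries, so these comparisons are not independent.

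The direct comparison of CAC_FP with CAC_F asks what the probiotic complex added to FOLFOX. No member was called, nor was any of the 15080 genes (0% in both directions), and at an unadjusted p below 0.05 there were 0 members and 2401 genes. DESeq2 and limma voom called none either. The median log2 fold change was -0.15, with 4 of 42 above 0. Kif4 had the smallest p, at -0.45 ± 0.229 (adjusted p = 0.342): its 5 CAC_FP libraries, at 36.8, 52.5, 48.5, 53.6 and 33.7 CPM, all lay below the CAC_F libraries (background 0.955%). Cdk1 had -0.49 ± 0.26, Incenp -0.32 ± 0.195 and Bub3 -0.16 ± 0.105, with adjusted p of 0.361 to 0.467. A p beyond the threshold does not show that the groups were alike.

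Loperamide was given on top of FOLFOX and the probiotic complex. In CAC_FPL against CAC_FP none of the 42 members was called, with a background of 0% in both directions, and DESeq2 and voom called none. The libraries overlapped in all 42 (background 0.166% higher and 0.0862% lower). All 42 log2 fold changes were below 0, with a median of -0.38 against 0.01 over all genes. Nusap1 was the only member at an unadjusted p below 0.05 (995 of 15080 genes), at -0.43 ± 0.188 (adjusted p = 0.745). Kif18b, Ect2 and Cenpa followed, at -0.44 ± 0.23, -0.53 ± 0.273 and -0.45 ± 0.24. Without CAC_FPL replicate 3 the median was -0.22, 2 of 42 were above 0 and none was called, so the value moved by over 1.5 times while most signs were kept.

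Against CAC, the CAC_FPL group had 0 members called higher or lower, where 0.882% of genes were called higher and 0.524% lower, and DESeq2 and voom called none. Of the 42 log2 fold changes 32 were above 0, with a median of 0.20. Incenp, at 0.41 ± 0.188 (adjusted p = 0.247), was the only member at an unadjusted p below 0.05 (2837 of 15080 genes). Bub3, Aurka and Prc1 followed, at 0.16 ± 0.101, 0.41 ± 0.285 and 0.31 ± 0.237. With CAC replicate 2 and CAC_FPL replicate 3 both left out, 7 members were called higher, and with either left out alone, 0.

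Against FOLFOX alone, 8 of 42 members were lower in CAC_FPL and 0 higher, where 5.05% of genes were called lower and 7.14% higher. All 42 log2 fold changes were below 0, with a median of -0.52 against 0.02 over all genes. The 8 were Ccnb1 (-0.85 ± 0.269), Kif4 (-0.85 ± 0.219), Cdk1 (-0.81 ± 0.248), Anln (-0.78 ± 0.242), Incenp (-0.62 ± 0.186), Kif23 (-0.59 ± 0.193), Nusap1 (-0.59 ± 0.188) and Bub3 (-0.31 ± 0.1), with adjusted p from 0.0181 to 0.0473. In 2 of them, Kif4 and Anln, the groups did not overlap (background 1.46%). Kif4 had 26.4, 32.8, 15.6, 34, 52.7 and 43.1 CPM in CAC_FPL, below the 56.7 of the lowest CAC_F library.

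The CAC_FPL libraries were themselves widely spread. Ccnb1 had 48.8, 45.8, 14.4, 65.7, 95.8 and 78.0 CPM in CAC_FPL replicates 1 to 6, and Mki67 193, 176, 103, 198, 273 and 268. Replicate 3 was below every NC library in both genes, and replicate 5 was within the CAC_F range of Ccnb1. The mean log2(CPM + 1) of the 42 members was 5.11, 5.06, 3.94, 5.33, 5.80 and 5.68 in that order, against 4.28 to 4.85 in NC and 5.48 to 6.11 in CAC_F. Smooth muscle markers were low in replicate 3, at 1830 CPM, where those of the other 5 libraries summed to 2540 to 5530. It was also the highest of its group in T cell markers, at 86.0 against 31.8 to 44.5 CPM, and in macrophage and monocyte markers, at 1480 against 520.4 to 1070. Its markers of enteric glia and neurons were the lowest, at 9.80 against 27.4 to 76.3 CPM, and its epithelial markers, at 11900, lay within the 8400 to 12100 of the others. Erythroid markers summed to 176, 58.2 and 32.9 CPM in replicates 1 to 3 and to 0.174, 0.949 and 3.70 in replicates 4 to 6. The part of these cells in the members' levels was not tested beyond the smooth muscle and epithelial covariates.

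The 8 calls against CAC_F depended on single libraries. Without CAC_FPL replicate 1 the count was 0, and without CAC_FPL replicate 5 or 6 it was 15. It was 1 without CAC_FPL replicate 2 or CAC_F replicate 1 or 2, 2 without CAC_F replicate 5, and 4 without CAC_FPL replicate 3 or CAC_F replicate 3. With the smooth muscle covariate 1 member, Kif4, was called, at -0.71 ± 0.225 (adjusted p = 0.0426).

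Comparisons of the treated groups with NC were added after the values had been seen, and they join AOM/DSS, tissue source and treatment. In CAC_F 41 of 42 members were higher than in NC, all but Plk1, where 22.6% of genes were called higher, and the median log2 fold change was 1.17. In 40 members the libraries of the groups did not overlap (background 13.5%). The largest were Kif20a (1.76 ± 0.277), Ccnb1 (1.73 ± 0.272), Ect2 (1.73 ± 0.278), Anln (1.70 ± 0.245), Cdk1 (1.61 ± 0.251) and Tpx2 (1.51 ± 0.255). Leaving out 1 library at a time kept the count at 41 to 42, and with the smooth muscle covariate it was 28. In CAC_FP 39 members were higher (background 14.1%), with a median of 1.04, the others being Plk1, Cenpf and Pttg1. In 35 the libraries did not overlap (background 8.4% higher and 8.25% lower). Ect2, at 1.57 ± 0.277, was the largest, followed by Kif2c, Kif20a, Anln, Ccnb1 and Aurka at 1.31 to 1.35. With the smooth muscle covariate 12 members were called. The smooth muscle markers of CAC_F and of CAC_FP did not overlap with those of NC, so in these fits smooth muscle and group cannot be told apart.

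In CAC_FPL 12 members were higher than in NC and 0 lower (background 4.4% and 2.68%), with a median of 0.71. All 42 overlapped between the groups (background 1.66% higher and 1.96% lower). Ect2 (1.05 ± 0.265), Kif20a (0.96 ± 0.264) and Anln (0.92 ± 0.234) were the largest, followed by Kif2c, Kif14 and Ccnb1 at 0.88 to 0.90. Without CAC_FPL replicate 3 the count was 38, and without CAC_FPL replicate 4, 5 or 6 it was 2. It was 4 without NC replicate 1, 3 or 4 and 7 without NC replicate 2. With the smooth muscle covariate 3 members were called, Ect2, Anln and Incenp.

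Some gene models overlap others on the opposite strand, among them Cdc20 with Elovl1, Bub3 with Fgfr2, Kif4 with Pdzd11, Ccna2 with Exosc9, Nusap1 with Oip5 and Kif20a with Cdc23. Reads from such partners could be counted with the member if strand was not used. The level of Elovl1 was 29.5 FPKM in CAC and 33.8 in CAC_F, that of Pdzd11 12.1 and 13.9, and that of Cdc23 4.62 and 4.74. Exosc9 had 5.14 and 8.02 FPKM and Oip5 2.55 and 3.84, higher in CAC_F as were Ccna2 and Nusap1. Fgfr2 had 10.1 and 6.85. The part of these partners in the members' levels was not tested. Reads of Ccnb1 could also be shared with its pseudogene copy Ccnb1-ps, which had 29 to 132 counts per library.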

How the data were processed

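The authors deposited 1 table with raw counts per gene, whole numbers for each of 27 libraries, beside FPKM per the file headers. Cutadapt 1.9, FastQC and HISAT2 are named in the submitters' processing notes. For the counting tool, annotation, strand setting and genome build, the sources used here give nothing. Per the labels' protocols, total RNA was extracted with Trizol and libraries carried dUTP strand marks. The filter kept 15080 genes and 99.3% of counts. Counts were fitted with edgeR 4.0.16 in R 4.3.3 in 1 model with a coefficient per group (TMM scaling, glmQLFit and glmQLFTest, two-sided), and each SE was the size of the log2 fold change divided by the root of F. No library was dropped or imputed, and no 2 libraries held identical counts. The procedure was also run on simulated counts in which genes varied independently of each other. The members moved together, so that run does not show how reliable their calls are. Members and gene lists were chosen with earlier results of these data known. Values by library were given for 7 members chosen by name and for the member with the smallest p in each role for CAC_F against CAC. In each comparison up to 6 called members with the largest change were named, or the 4 with the smallest p where none was called, and up to 4 called genes of each pathway list. Other members were named as values. Alternatives used limma 3.58.1 and DESeq2 1.42.0.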

Additional observations from a re-analysis of the deposited data

Results flagged for a closer look

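In 5 or 6 libraries a single value far from the rest of its group, by Dixon's test, would arise in about 1 in 20 groups by chance, and 90 such sets of values were looked at. The values flagged below were fewer than that rate would give by chance over so many sets. Mki67 stood at 338 CPM in CAC replicate 2, with the next CAC library at 209 and the lowest at 159. The mean log2(CPM + 1) of the mitosis genes less that of the S phase genes stood at -0.43 in CAC_FPL replicate 3, with the next CAC_FPL library at 0.04 and the highest at 0.22.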

How the results depend on the processing

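Of the counts of called members recomputed under an alternative, 393 stayed within 1.5 times the first count and 57 did not, and the cause was not tested. Most first counts were 0, and the 393 include every count of 0 that stayed 0. They therefore do not measure how stable the counts above 0 were. The share of all genes called under each alternative is not given here, so the counts below describe the calls and are not set beside a background. CAC against NC had 1 member with DESeq2. CAC_F against CAC (24) had 37 with voom, 5 with the smooth muscle covariate and 38 without both CAC replicate 2 and CAC_FPL replicate 3. CAC_FP against CAC (5) had 1 with no filter, 15 with DESeq2, 23 with voom, 11 on log2(FPKM + 1), 15 with only the groups compared, 0 and 3 with the smooth muscle and epithelial covariates, and 34 without both libraries. CAC_FPL against CAC (0) had 7 without both. CAC_FPL against CAC_F (8 lower) had 1 with no filter, 13 with DESeq2, 27 with voom, 0 with only the groups compared, 1 and 4 with the covariates, and 5 without both. Where a mean FPKM of at least 5 left 27 members, CAC_F against NC had 26 and CAC_FP against NC 25, and the latter had 12 with the smooth muscle covariate. CAC_FPL against NC (12) had 4 with no filter, 26 with DESeq2, 25 with voom, 0 with only the groups compared, 3 and 2 with the covariates, and 39 without both. Leaving out 1 library at a time gave 0 to 16 for CAC_FP against CAC, 0 to 15 for CAC_FPL against CAC_F and 2 to 38 for CAC_FPL against NC. Pttg1 in CAC_F against CAC turned to -0.076 with the smooth muscle covariate. With the replicate number as a block the counts were 21 for CAC_F against CAC, 3 for CAC_FP against CAC and 13 for CAC_FPL against CAC_F, but same-numbered libraries did not deviate together (median correlation 0.00666 over 51 pairs), and 6 of 27 libraries were closest to their own number.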
